A study of Arabidopsis thaliana with 3 samples.

Results

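The Gypsy retrotransposons other than ATHILA are described here from the 24-nt small RNA levels deposited for seedlings of 3 genotypes of Arabidopsis thaliana, with 1 library each. The libraries came from total RNA of 10-day-old whole seedlings grown in vitro in liquid MS medium. The first genotype was ddb2-3 (DsLoxHs195_05H), an insertion line of DDB2, a protein that recognises damaged DNA in global genome repair. The second was nrpd1a (Salk_583051), an insertion line of the gene for the largest subunit of RNA polymerase IV. The reference was WT (Col). Levels were deposited over regions of differential DNA methylation, in 6 classes by cytosine context (CG, CHG or CHH, where H is A, C or T) and direction (hyper or hypo). Which genotypes were compared to set the classes is not given in the sources used here. The members are the regions for which every listed repeat name begins with ATGP, ATLANTYS or TAT1_ATH, a choice that used no measured level. There were 345 of them among 4481 distinct regions (7.70%). The most similar groups in the series were 875 regions of ATHILA, the most abundant Gypsy group among these regions, and 271 regions of Copia elements, the other superfamily of retrotransposons with long terminal repeats.

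A Gypsy retrotransposon carries an internal part, which encodes the capsid protein and a polyprotein with protease, reverse transcriptase, RNase H and integrase, between 2 long terminal repeats (LTRs). The LTRs hold the promoter and the end of the transcript, and they are copied from each other during reverse transcription, so the pair is identical when a copy inserts. In Arabidopsis, Pol IV transcribes silent repeats, RDR2 makes the transcripts double-stranded, and DCL3 cuts them into 24-nt small interfering RNAs (siRNAs). These guide the methyltransferase DRM2 to cytosines of all contexts, while CMT3 and CMT2 maintain CHG and CHH methylation in heterochromatin with less need for siRNAs.

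ATGP1 supplied 144 of the members and ATLANTYS1 71. They were followed by ATLANTYS2 with 35 regions, ATGP2 with 20, ATGP3 with 15, ATGP2N with 13, ATLANTYS3 with 12, ATGP10 with 8, and ATGP8 and TAT1_ATH with 6 each. ATGP5 and ATGP6 had 2 regions each and ATGP7 had 1, and 10 regions listed elements of several families. The members lay in 175 single elements, of which 99 held 1 region and 76 held at least 2, while 11 regions listed 2 elements. Most were short, 297 being 100 bp wide, within a range of 52 to 700 bp. By class 161 members were CHG-hyper and 76 CHG-hypo, while 70 were CHH-hyper and 37 were CHH-hypo, with 1 CG-hyper and 1 CG-hypo, and 1 region belonged to 2 classes. Hyper and hypo regions occurred in the same element in 51 cases.

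Reference copies of ATGP1 and ATLANTYS1 were located on the genome sequence (RefSeq assembly TAIR10.1, which has the nuclear coordinates of TAIR10). One ATGP1 copy on chromosome 5 (chr5:10764243-10772498, plus strand) was 8256 bp long and began and ended with repeats of 1153 bp that were 98.6% identical. One ATLANTYS1 copy on chromosome 1 (chr1:16626037-16637234, plus strand) was 11198 bp long, with terminal repeats of 519 bp that were 97.1% identical. Both were selected for an LTR pair, which Copia elements carry as well, so the pair is no check of the group's label. The search also required a set starting motif for each family, an end near the bases ca and a set range of lengths. The start with tg and the repeat lengths therefore follow in part from the search. The first 30 bases of the LTRs are shown to identify the repeats that were used.
ATGP1 LTR, first 30 bases: tgtaacgcccgtgaaccggaaaatcggtta
ATLANTYS1 LTR, first 30 bases: tgtgggttctaaaatccacactagagattt

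All 144 ATGP1 regions could be placed on this copy by alignment, 44 in the LTR and 100 in the internal part. The next pair belongs to this same element and is shown because the 2 regions held abundant 24-nt RNA in ddb2-3 and WT and differed in nrpd1a. In every region sequence below, letters are the plus strand of TAIR10.1 and capitals mark the cytosines of that strand in the context of the region's class. Capitals mark CHH in both regions here.
ATGP1 internal part, chr5:10766701-10767000: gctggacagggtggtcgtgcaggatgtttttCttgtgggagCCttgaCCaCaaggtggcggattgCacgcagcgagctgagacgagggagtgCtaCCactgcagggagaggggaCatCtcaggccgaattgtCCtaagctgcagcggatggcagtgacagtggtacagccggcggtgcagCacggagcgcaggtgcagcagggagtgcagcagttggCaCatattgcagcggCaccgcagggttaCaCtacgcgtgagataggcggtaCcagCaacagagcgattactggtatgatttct
ATGP1 LTR, chr5:10771801-10772100: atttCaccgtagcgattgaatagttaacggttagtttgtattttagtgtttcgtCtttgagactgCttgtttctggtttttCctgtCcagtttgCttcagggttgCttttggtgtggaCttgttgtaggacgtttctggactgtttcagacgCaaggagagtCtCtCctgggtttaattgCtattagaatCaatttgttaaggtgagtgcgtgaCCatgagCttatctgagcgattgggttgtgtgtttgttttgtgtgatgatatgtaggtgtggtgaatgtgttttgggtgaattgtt
The internal region lies in an exon of the transposon pseudogene AT5G28715, and the LTR region lies in no annotated gene. They differ in base composition, with 59.0% GC in the internal region and 41.0% in the LTR region. The same contrast held over the family, with a median of 50.3% GC and 12 CHG sites per 100 bp (both strands) internally, against 36.8% GC and 2.0 CHG sites in the LTR.

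The LTR region above and the LTR regions of 3 other ATGP1 copies had the highest nrpd1a levels of all members. The longest run of bases shared by all 4, on either strand, was 21 bases long and lay at positions 708 to 728 of the ATGP1 copy, counted from its 5′ end. It is shown because it was present in 55 exact copies on the 5 nuclear chromosomes, so this stretch does not tell the copies apart.
Run shared by the 4 LTR regions with the highest nrpd1a level: ttgtgtgatgatatgtaggtg
A pair of these regions is given whole, with CHH cytosines in capitals, to show how alike the LTRs of separate copies are.
ATGP1 LTR, chr1:13659901-13660000: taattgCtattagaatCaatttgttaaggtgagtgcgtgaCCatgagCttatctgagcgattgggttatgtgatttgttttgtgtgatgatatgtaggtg
ATGP1 LTR, chr3:11055501-11055600: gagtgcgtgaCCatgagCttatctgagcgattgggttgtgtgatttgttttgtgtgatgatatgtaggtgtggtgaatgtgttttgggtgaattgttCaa

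Further sequences belong to regions picked for their ddb2-3 to WT ratio and to neighbours of such regions. The ATGP8 and ATGP1 regions had the largest ratios of ddb2-3 to WT among well-covered members of a single family. The pairs from a TAT1_ATH element and an ATGP2 element show neighbouring stretches of 1 element whose ratios lay on opposite sides of 1. Capitals mark CHH in the ATGP8 and TAT1_ATH regions and CHG in the ATGP1 and ATGP2 regions.
ATGP8, chr5:13809401-13809500: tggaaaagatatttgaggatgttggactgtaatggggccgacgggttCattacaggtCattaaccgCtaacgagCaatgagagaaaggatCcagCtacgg
ATGP1 internal part, chr3:12479701-12479800: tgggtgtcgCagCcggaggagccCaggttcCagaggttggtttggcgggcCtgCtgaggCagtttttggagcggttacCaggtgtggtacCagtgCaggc
TAT1_ATH, chr5:26415201-26415300: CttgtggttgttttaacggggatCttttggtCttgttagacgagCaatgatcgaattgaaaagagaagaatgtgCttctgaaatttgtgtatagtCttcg
TAT1_ATH, chr5:26415401-26415500: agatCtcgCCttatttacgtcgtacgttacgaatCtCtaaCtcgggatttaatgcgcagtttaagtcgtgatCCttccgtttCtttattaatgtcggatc
ATGP2, chr2:44801-44900: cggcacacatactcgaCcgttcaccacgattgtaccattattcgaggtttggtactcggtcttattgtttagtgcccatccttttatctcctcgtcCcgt
ATGP2, chr2:45501-45600: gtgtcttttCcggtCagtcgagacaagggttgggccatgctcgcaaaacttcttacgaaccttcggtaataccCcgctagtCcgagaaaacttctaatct

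The values are RPM (reads scaled to library size), deposited by the authors as sums per region. They were whole multiples of the value of 1 read, 0.120 RPM in ddb2-3, 0.727 RPM in nrpd1a and 0.169 RPM in WT, so read numbers could be recovered. These steps correspond to totals of 8345931, 1376238 and 5913669 reads for the 3 libraries in that order. A single nrpd1a read therefore weighs more than a single read of the other libraries. With 1 library per genotype no difference has a replicate check, no test of the genotypes was possible, and all intervals are 95% exact binomial (Clopper-Pearson) intervals that cover counting error only. How reads that match several genomic sites were counted is not given in the sources used here. If such reads were counted at each copy, the same read enters several regions and the intervals over repeats are too narrow. The tables hold no transcript levels, so neither insertion was checked through its own gene. In bulk seedlings, fewer cells with these siRNAs and less siRNA per cell cannot be told apart. Among the 4462 distinct regions covered in both libraries, the median ratio of ddb2-3 to WT was 1.15, a log2 shift of 0.20, and changes are also given relative to it.

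Over the whole group, 24-nt siRNAs were nearly gone in nrpd1a and slightly more abundant in ddb2-3 than in WT. The 345 regions summed to 7398 RPM in ddb2-3, 134 RPM in nrpd1a and 6482 RPM in WT. The medians per region were 7.43 RPM in ddb2-3, 0 RPM in nrpd1a and 6.26 RPM in WT. The log2 ratio of the ddb2-3 sum to the WT sum was 0.19 (0.17 to 0.21), and relative to the median region it was -0.0081 (-0.027 to 0.010), so the sum stood about as far from WT as the typical region of the series. ATHILA regions had 0.60 (0.59 to 0.62), Copia regions -0.073 (-0.093 to -0.053), and all distinct regions 0.13 on the same scale. The members therefore lay well below ATHILA and above Copia, with intervals that did not overlap either.

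**Figure D1:**
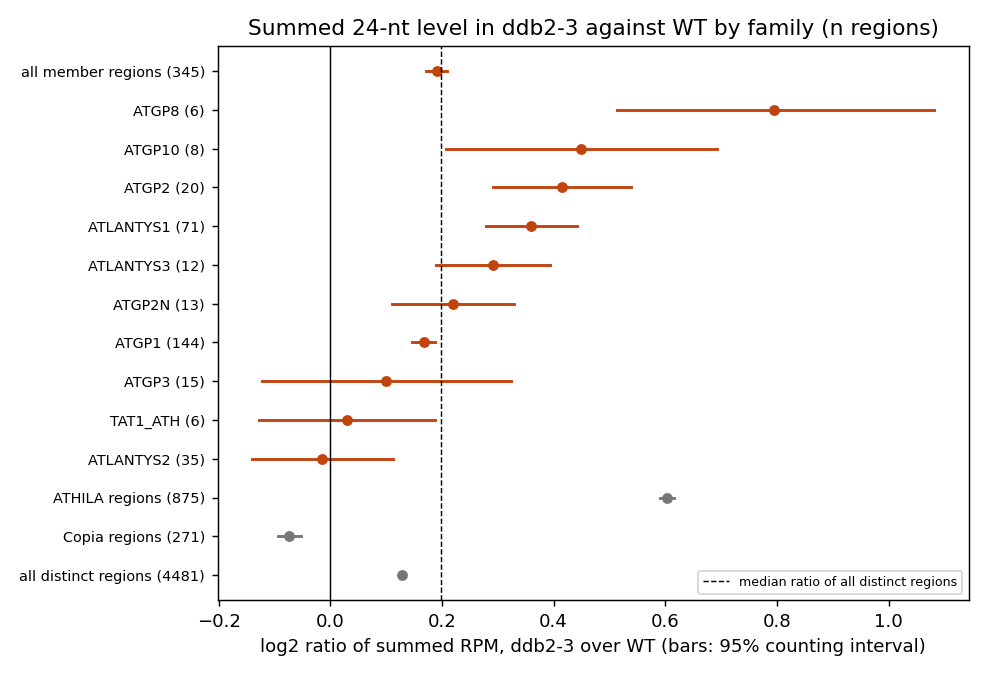
Log2 ratio of summed RPM in ddb2-3 to that in WT (horizontal axis) for all members, each family of at least 5 regions, and the ATHILA, Copia and all distinct regions in grey, with 95% counting intervals as bars. Among the member families ATGP8 stands highest at 0.80 and ATLANTYS2 lowest at -0.014, with Copia lower at -0.073, and the dashed line is the median region of the series at 0.20.

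Region by region, most members were above WT in ddb2-3, by small amounts. Of the 345 regions, 253 had a higher RPM in ddb2-3 than in WT and 92 a lower one, where 63.4% of all distinct regions were above WT. Relative to the median region 208 members were above WT, against 2235 of all 4481 regions. The median log2(RPM + 1) difference of the members was 0.26, against 0.17 for all distinct regions, and 0.08 relative to the median region. By a rule of at least 2-fold on log2(RPM + 1), 13 members were higher in ddb2-3, where the background over all regions was 5.22%. Only 1 member was at least 2-fold lower, with a background of 1.67%. The share of strongly changed members was thus no larger than in the series as a whole. The members nearest the 2-fold limit had log2 differences of 1.01 just inside it and 0.98 just outside it.

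An exact binomial test on the recovered reads compares the 2 libraries and not the genotypes. It called 69 members higher in ddb2-3 and 8 lower at a Benjamini-Hochberg adjusted p of 0.05 over all distinct regions, with backgrounds of 19.3% and 7.03%.

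**Figure D2:**
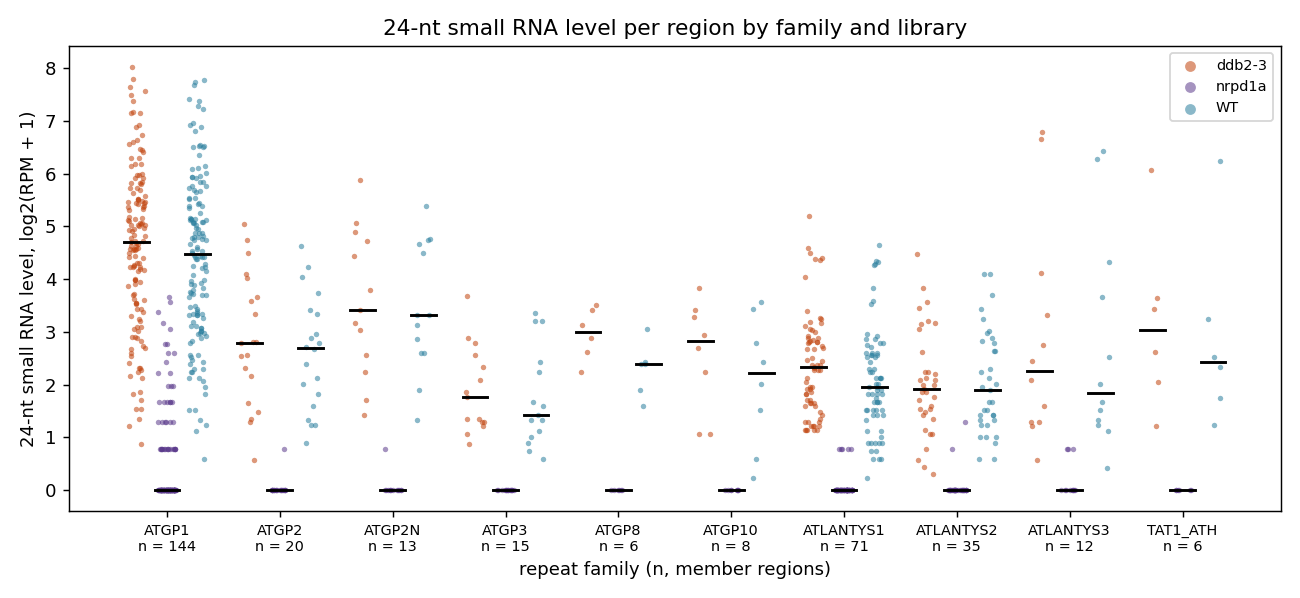
Level per region as log2(RPM + 1) (vertical axis) in ddb2-3, nrpd1a and WT for each family of at least 5 regions, with 1 point per region and black bars at the medians. ATGP1 regions have the highest median in ddb2-3 and WT, and the median of every family shown is 0 in nrpd1a.

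ATGP1 held most of the summed RPM of the group. Its sums depend on how reads with several hits were counted, and they would count the same read more than once if each copy received it. Its 144 regions summed to 5777 RPM in ddb2-3, 123 RPM in nrpd1a and 5145 RPM in WT, which is 79.4% of the WT sum of all members. The 10 members with the highest level were all ATGP1 regions and held 25.2% of the WT sum. Its log2 ratio of sums was 0.17 (0.15 to 0.19) in ddb2-3, and relative to the median region it turned to -0.032 (-0.052 to -0.011). The other families together, 201 regions, summed to 1621 RPM in ddb2-3, 10.9 RPM in nrpd1a and 1337 RPM in WT. Their log2 ratio of sums was 0.28 (0.24 to 0.32) in ddb2-3 and stayed above 0 relative to the median region, at 0.079 (0.039 to 0.12).

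The smaller families differed in their ddb2-3 ratios. ATGP8 had the highest ratio of the families with at least 5 regions. Its 6 regions summed to 43.1 RPM in ddb2-3, 0 RPM in nrpd1a and 24.9 RPM in WT, a log2 ratio of 0.80 (0.51 to 1.08), and all 6 were above WT also relative to the median region. ATGP10 summed to 49.8 RPM in ddb2-3, 0 RPM in nrpd1a and 36.5 RPM in WT, a log2 ratio of 0.45 (0.21 to 0.69). ATGP2 summed to 185 RPM in ddb2-3, 0.727 RPM in nrpd1a and 138 RPM in WT, a log2 ratio of 0.41 (0.29 to 0.54). These 3 families lay above the median region of the series, with relative log2 ratios of 0.60, 0.25 and 0.22 whose intervals stayed above 0.

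The ATLANTYS families, long Gypsy elements, did not share 1 ratio. ATLANTYS1 summed to 412 RPM in ddb2-3, 3.63 RPM in nrpd1a and 321 RPM in WT, a log2 ratio of 0.36 (0.28 to 0.44) that was 0.16 relative to the median region. ATLANTYS3 summed to 256 RPM in ddb2-3, 2.18 RPM in nrpd1a and 209 RPM in WT, a log2 ratio of 0.29 (0.19 to 0.39), with a relative interval that reached 0. ATLANTYS2 summed to 148 RPM in ddb2-3, 2.18 RPM in nrpd1a and 149 RPM in WT, a log2 ratio of -0.014 (-0.14 to 0.11), which was -0.21 (-0.34 to -0.087) relative to the median region. Over all its regions ATLANTYS2 had the lowest ratio of the member families, and its interval did not overlap that of ATLANTYS1.

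The remaining families lay near WT or near the median region. ATGP2N summed to 216 RPM in ddb2-3, 0.727 RPM in nrpd1a and 186 RPM in WT, a log2 ratio of 0.22 (0.11 to 0.33) that was 0.021 relative to the median region, with an interval that held 0. ATGP3 summed to 50.6 RPM in ddb2-3, 0 RPM in nrpd1a and 47.2 RPM in WT, a log2 ratio of 0.10 (-0.12 to 0.32) that turned to -0.099 relative to the median region. TAT1_ATH summed to 97.5 RPM in ddb2-3, 0 RPM in nrpd1a and 95.5 RPM in WT, a log2 ratio of 0.030 (-0.13 to 0.19) that turned to -0.17 (-0.33 to -0.012) relative to the median region. The TAT1_ATH sum rested on 1 region, chr5:26415401-26415500, with 66.6 RPM in ddb2-3, 0 RPM in nrpd1a and 74.6 RPM in WT. Families of 1 or 2 regions had intervals too wide to place, except ATGP5, whose 2 regions summed to 13.4 RPM in ddb2-3, 0 RPM in nrpd1a and 6.09 RPM in WT.

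Several family ratios changed when only members with at least 90% of their 24-mers unique in the genome were kept, which left few regions per family. ATLANTYS2 then turned to 0.21 (-0.15 to 0.57, 8 regions), with an interval that overlapped that of ATLANTYS1 at 0.37 (0.16 to 0.59, 14 regions). ATGP2 was at 0.056 (-0.38 to 0.50, 2 regions) and ATGP10 at 0.88 (0.46 to 1.32, 4 regions). TAT1_ATH was at 0.78 (0.43 to 1.13) over 4 regions that leave out its highest one, and ATGP1 at 0.42 (0.014 to 0.85) over 4 regions. The order of the families was therefore not the same among uniquely placed regions. All members of this kind, 53 regions, had a log2 ratio of sums of 0.39 (0.27 to 0.51).

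Within ATGP1, the LTR and the internal part differed in both mutants. The 44 LTR regions summed to 2459 RPM in ddb2-3, 115 RPM in nrpd1a and 2409 RPM in WT. The 100 internal regions summed to 3319 RPM in ddb2-3, 7.99 RPM in nrpd1a and 2736 RPM in WT. In ddb2-3 the LTR sum was nearly that of WT, with a log2 ratio of 0.029 (-0.0016 to 0.060), and the internal sum was higher, with 0.28 (0.25 to 0.31). Relative to the median region these became -0.17 (-0.20 to -0.14) in the LTR and 0.080 (0.052 to 0.11) internally, so the LTR then lay below WT and the internal part above it. Of the LTR regions 20 were above WT, against 84 of the internal regions. The parts were compared after the values had been seen, and their base composition and genome copy number differ as well, so the part played by these features was not tested.

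**Figure D3:**
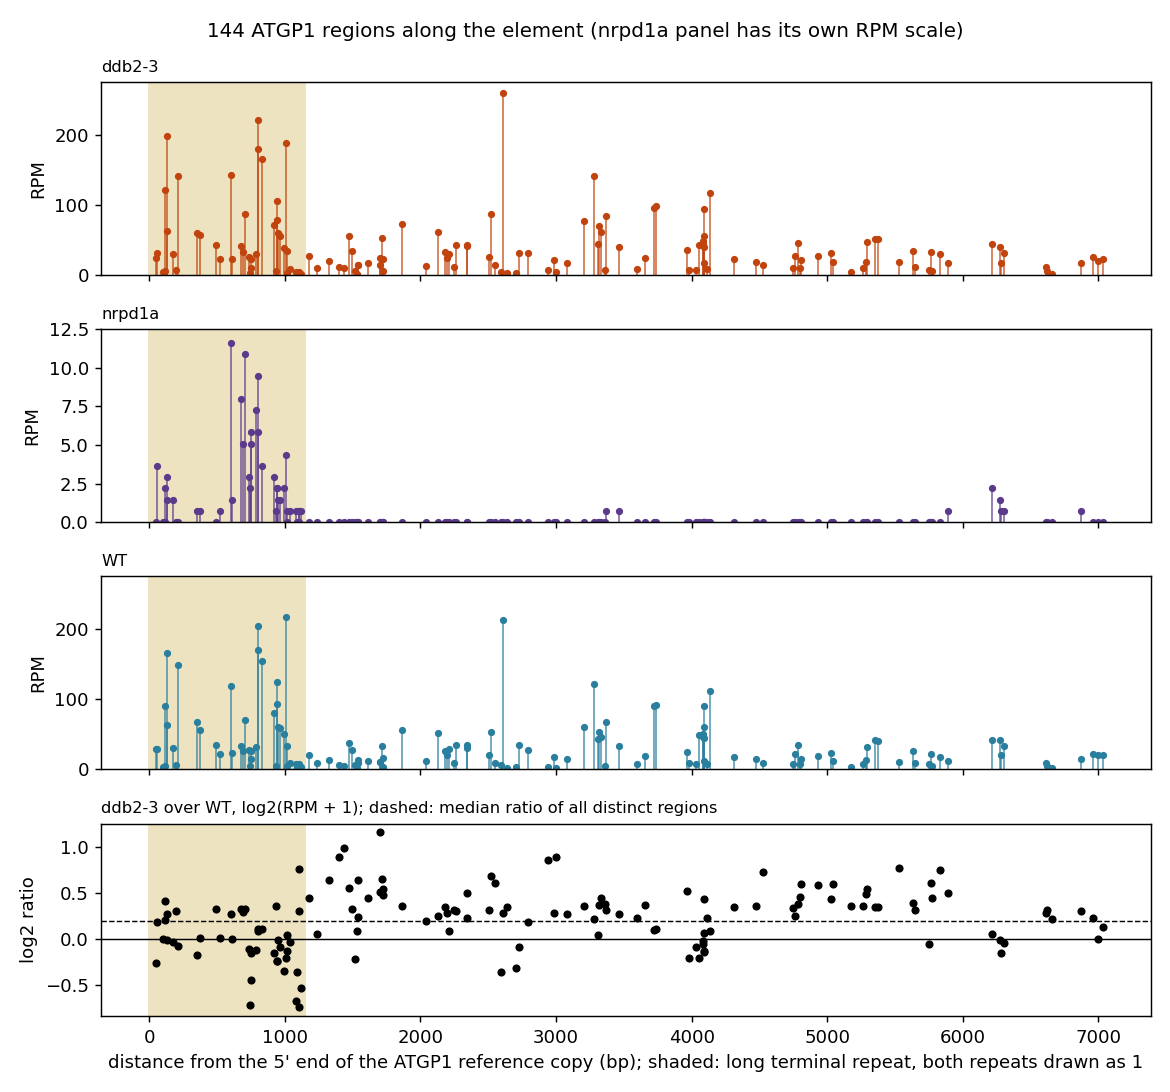
The 144 ATGP1 regions by distance in bp from the 5′ end of the reference copy (horizontal axis), with the RPM in ddb2-3, nrpd1a and WT and the ddb2-3 to WT difference on log2(RPM + 1) (vertical axes). Each point is 1 region and the LTR is shaded. Of the 169 nrpd1a reads, 158 lie in the LTR, while most internal regions lie above 0 in the lowest panel.

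In nrpd1a, the reads that remained over ATGP1 lay almost wholly in the LTR. The LTR regions held 158 of the 169 ATGP1 reads of that library and the internal regions held 11. At least 1 read was found in 35 of 44 LTR regions, against 8 of 100 internal regions. The level kept in nrpd1a was 4.77% (4.05 to 5.57) of WT in the LTR and 0.292% (0.146 to 0.523) internally. Along the copy, 128 reads fell on the 21 regions centred between 500 and 1000 bp, within the LTR, whereas the 11 regions between 1500 and 2000 bp had none. The median WT level of those 2 stretches was 49.7 and 10.1 RPM. A further 7 reads lay between 6000 and 6500 bp, in 4 internal regions, where the ddb2-3 log2 ratio of sums was -0.020. The 12 internal regions between 4000 and 4500 bp had a similar ratio, 0.015, but 0 nrpd1a reads at a median WT level of 45.1 RPM. In the other stretches of 500 bp from 1500 bp on, the ddb2-3 ratio ran from 0.13 to 0.55, so it was not uniform within the internal part.

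The 21-base run shared by the 4 highest regions was present in 6 of the 44 LTR regions, which held 69 nrpd1a reads. Those 4 regions, from which the run was taken, held 16, 15, 13 and 11 of these reads. The number of reads in regions with the run therefore follows largely from that choice. The other 38 LTR regions held 89 reads, and 29 of them had at least 1 read. The reads were thus not limited to the regions that hold this run.

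The difference between the parts was present at both levels of sequence repetition. The 23 LTR regions whose 24-mers had a median of at least 20 genome copies kept 4.84% (4.0 to 5.81) of WT in nrpd1a, and the 21 LTR regions with fewer copies kept 4.55% (3.25 to 6.21). The 7 internal regions of at least 20 copies kept 0.488% (0.0590 to 1.76), and the 93 with fewer copies kept 0.268% (0.123 to 0.509). In ddb2-3 the log2 ratio of sums was 0.070 in the LTR and 0.19 internally at 20 copies or more, which turned to -0.13 and -0.0057 relative to the median region. Below 20 copies it was -0.090 in the LTR and 0.29 internally. On both sides of this split the ddb2-3 ratio was lower in the LTR than internally, and the share kept in nrpd1a was higher. The upper side held only 7 internal regions, its ddb2-3 ratios are given without intervals, and the part played by copy number was not tested.

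The difference was also present in both cytosine contexts. Among CHH regions of ATGP1, the log2 ratio of sums in ddb2-3 was 0.028 (-0.0042 to 0.060) in 37 LTR regions and 0.25 (0.21 to 0.29) in 39 internal regions. Among CHG regions it was 0.044 (-0.064 to 0.15) in 7 LTR regions and 0.31 (0.27 to 0.35) in 61 internal regions. In nrpd1a the CHH regions kept 4.84% in the LTR and 0.171% internally, and the CHG regions kept 3.98% in the LTR and 0.396% internally. Relative to the median region the LTR ratio in ddb2-3 was -0.17 for CHH and -0.16 for CHG, below WT in both contexts.

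The same difference was seen within single copies. There were 15 ATGP1 copies with regions in both parts, and the ddb2-3 to WT ratio was higher internally than in the LTR in 11 of them. The LTR held more nrpd1a reads than the internal part in 14 of the 15, with any read in the LTR of 14 copies and in the internal part of 1. The LTR read numbers of these 14 copies ran from 1 to 22, with a single read in several copies. They were not adjusted for the number of regions or the WT level. In 9 of the 15 the mean WT level was higher in the LTR. The copies share much of their LTR sequence, so they are not independent measurements if reads with several hits were counted at each.

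**Figure D4:**
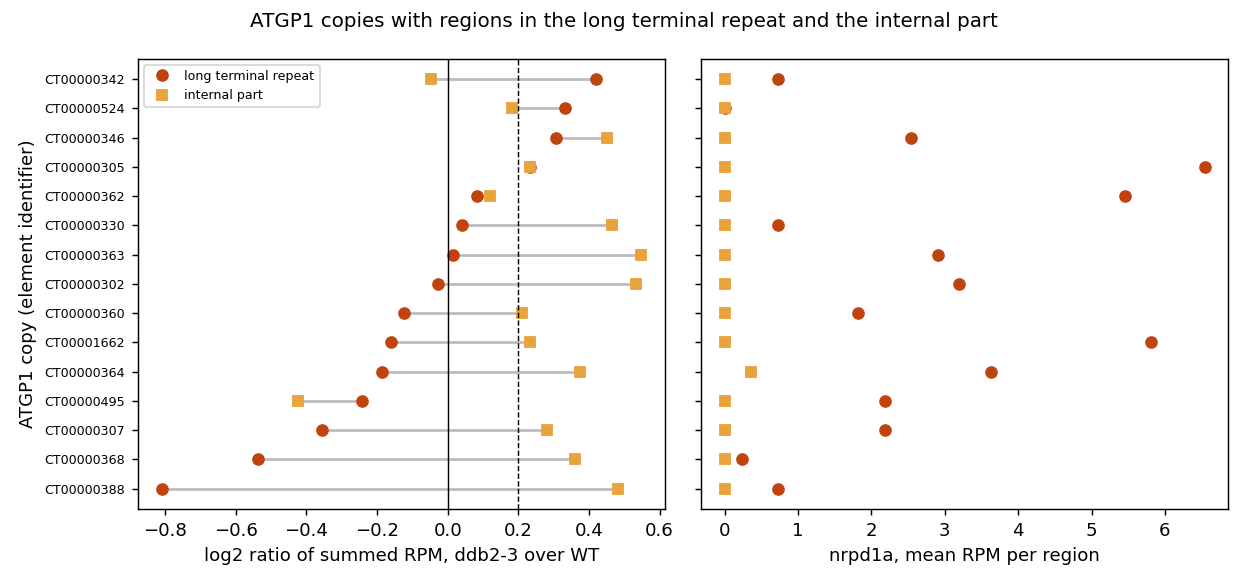
The 15 ATGP1 copies with regions in both parts, with the log2 ratio of summed RPM in ddb2-3 to WT (left) and the mean RPM per region in nrpd1a (right), circles for the LTR and squares for the internal part. Squares lie to the right of circles in 11 copies on the left, and circles to the right of squares in 14 copies on the right.

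The copy on chromosome 3 with its regions between 12616401 and 12620000 had the widest gap. Its LTR region had 3.95 RPM in ddb2-3, 0.727 RPM in nrpd1a and 6.93 RPM in WT, and its 2 internal regions averaged 37.4 RPM in ddb2-3, 0 RPM in nrpd1a and 26.8 RPM in WT. A copy on chromosome 1 (13659401 to 13667200) averaged 39.6 RPM in ddb2-3, 3.20 RPM in nrpd1a and 40.3 RPM in WT over 5 LTR regions. Its internal region had 35.2 RPM in ddb2-3, 0 RPM in nrpd1a and 24.4 RPM in WT. In both copies the mean was above WT in ddb2-3 only for the internal part, and only the LTR held nrpd1a reads. In the chromosome 1 copy the LTR sum was close to WT, with a log2 ratio of -0.028. Its LTR region chr1:13659901-13660000 was above WT, with 41.8 RPM in ddb2-3, 7.99 RPM in nrpd1a and 33.1 RPM in WT. The reverse order was seen in a copy on chromosome 1 (15800401 to 15803600), whose LTR had a log2 ratio of 0.42 and whose internal part had -0.047.

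ATLANTYS1 showed values of the same order on fewer reads. Of its 71 regions, 5 were placed in the LTR, 54 internally and 12 could not be placed. The LTR regions had 3 nrpd1a reads and kept 3.74% (0.767 to 11) of WT, and the internal regions had 1 read and kept 0.335% (0.00849 to 1.87), with intervals that overlap. In ddb2-3 the log2 ratio of sums was 0.098 (-0.10 to 0.30) in the LTR and 0.45 (0.35 to 0.54) internally, and relative to the median region the LTR value turned to -0.10. The highest ATLANTYS1 region in WT, chr2:5502201-5502300, lay in an LTR and had 19.7 RPM in ddb2-3, 0.727 RPM in nrpd1a and 24.2 RPM in WT.

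In nrpd1a the members as a whole kept 2.06% (1.77 to 2.38) of the WT sum, on 184 reads. All distinct regions together kept 3.54%, ATHILA 1.34% and Copia 1.93%. No read was found in 289 of the 345 members, where 77.1% of all distinct regions had none. By the size rule 321 members were at least 2-fold lower than WT, with a background of 92.9%, and 0 were at least 2-fold higher, with a background of 0.246%. The binomial test on reads called 239 lower, with a background of 71.2%, and 0 higher, with a background of 0.245%. The share of members lost was close to that of the series as a whole.

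How far the loss can be followed in 1 region depends on depth. A region without a read in nrpd1a could still hold up to 3 reads, or 2.18 RPM. Of the 323 members with at least 1 RPM in WT, 304 had a measured nrpd1a level under 10% of WT. Only 81 members had a WT level at which 3 nrpd1a reads would fall under 10%, and 74 of these were under it. Outside ATGP1 the members kept 0.815% (0.456 to 1.35) of WT on 15 reads, and the members without the ATGP1 LTR regions kept 0.464% (0.303 to 0.680). The ATGP1 LTR regions thus held most of the reads that remained, with 85.9% of the nrpd1a reads of all members.

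**Figure D5:**
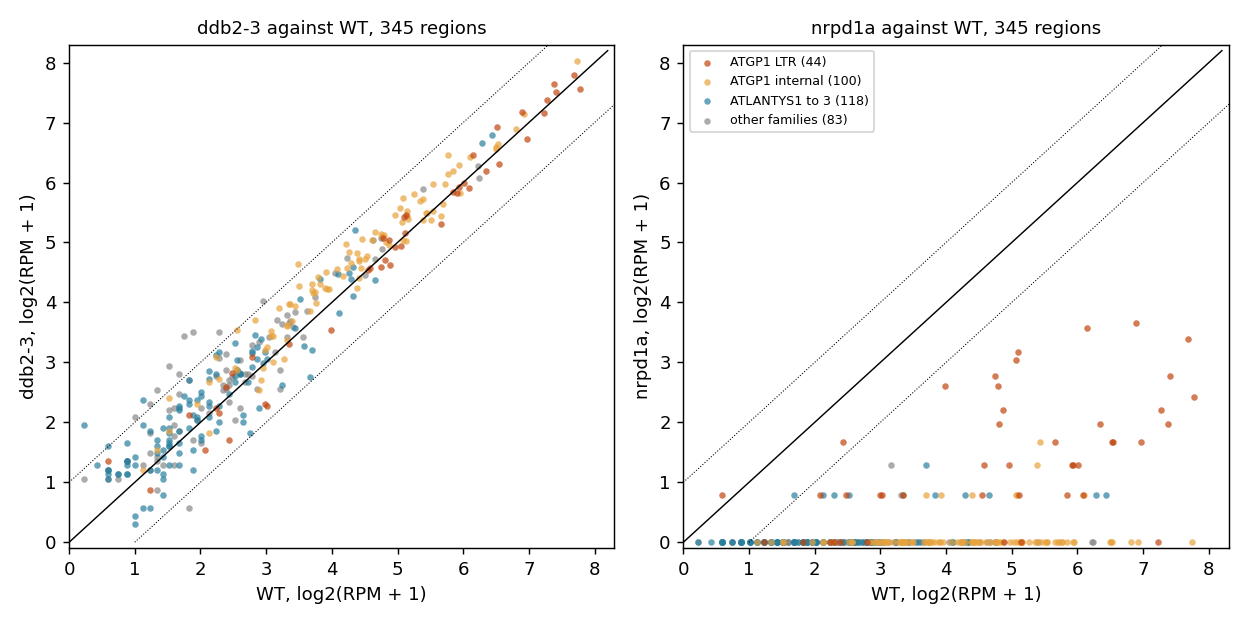
Level of the 345 members in ddb2-3 (left) and nrpd1a (right) against WT, all as log2(RPM + 1), with equality as a solid line and 2-fold as dotted lines. In ddb2-3 most points lie between the dotted lines, and in nrpd1a the points above 0 are mostly ATGP1 LTR regions, while 289 regions lie at 0.

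The well-covered regions with the lowest nrpd1a to WT ratio, among members of at least 10 RPM in ddb2-3 or WT, were all in ATGP1. The region chr5:10766701-10767000, whose sequence is given above, had 259 RPM in ddb2-3, 0 RPM in nrpd1a and 213 RPM in WT. Its nrpd1a level was at least 97.6-fold lower than WT with the floor of 3 reads in nrpd1a. The region chr5:15491701-15491800 had 141 RPM in ddb2-3, 0 RPM in nrpd1a and 149 RPM in WT, at least 68.3-fold lower in nrpd1a, although it lies in the LTR. Its centre was 214 bp into the LTR, outside the stretch with most nrpd1a reads. The internal regions chr4:1621401-1621500 and chr4:6533301-6533600 had 141 and 118 RPM in ddb2-3, no read in nrpd1a, and 121 and 111 RPM in WT.

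The 4 members with the highest nrpd1a level were ATGP1 LTR regions in CHH classes. The region chr5:10771801-10772100 had 143 RPM in ddb2-3, 11.6 RPM in nrpd1a and 118 RPM in WT, so that 9.84% (5.59 to 16.1) of WT was kept on 16 reads. The region chr3:11055501-11055600 had 87.5 RPM in ddb2-3, 10.9 RPM in nrpd1a and 69.8 RPM in WT, and kept 15.6% (8.66 to 26.0). The region chr2:1629901-1630100, 642 bp from APC2, a gene for a subunit of the anaphase-promoting complex, had 221 RPM in ddb2-3, 9.45 RPM in nrpd1a and 205 RPM in WT, and kept 4.62% (2.45 to 7.92). In none of these regions did nrpd1a come near the WT level. The region chr1:13659901-13660000 had 41.8 RPM in ddb2-3, 7.99 RPM in nrpd1a and 33.1 RPM in WT, and kept 24.1% (11.8 to 44.1), the largest share of the 4. In all 4 the ddb2-3 level was above WT, but for chr2:1629901-1630100 the log2 difference of 0.11 was smaller than that of the median region.

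Among members of at least 10 RPM in ddb2-3 or WT, the largest ddb2-3 to WT ratios were found outside the LTR of ATGP1. The ATGP8 region chr5:13809401-13809500 had 10.4 RPM in ddb2-3, 0 RPM in nrpd1a and 2.71 RPM in WT, a ratio of 3.85 (2.24 to 7.04). The region chr3:15041501-15041600, listed for ATGP2 and ATLANTYS2 and lying in an exon of the pseudogene AT3G42996, had 10.3 RPM in ddb2-3, 0 RPM in nrpd1a and 3.89 RPM in WT, a ratio of 2.65 (1.66 to 4.40). The internal ATGP1 region chr3:12479701-12479800, in an exon of the pseudogene AT3G30802, had 23.8 RPM in ddb2-3, 0 RPM in nrpd1a and 10.1 RPM in WT, a ratio of 2.35 (1.75 to 3.19). It was the 1 ATGP1 region at least 2-fold higher, and its nrpd1a level was at least 4.65-fold lower than WT. The ATGP2 region chr5:11144901-11145000 had 15.2 RPM in ddb2-3, 0 RPM in nrpd1a and 6.76 RPM in WT, a ratio of 2.25 (1.57 to 3.30).

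Of the 13 members at least 2-fold higher in ddb2-3, 10 had under 3 RPM in WT. A CHG class held 10 of the 13, where 237 of all 345 members (68.7%) were in a CHG class. Their ddb2-3 levels ran from 2.04 to 23.8 RPM and their WT levels from 0.169 to 10.1 RPM, and the interval of the ratio lay above 1 in all 13, which follows in part from the rule. They came from ATGP1, ATGP2, ATGP3, ATGP5, ATGP8, ATGP10, ATLANTYS1, TAT1_ATH and the ATGP2 and ATLANTYS2 region, so no single family accounted for them. Those without at least 10 RPM were chosen after their values were seen, as were the ATGP2 region at least 2-fold lower and the neighbours compared next.

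Neighbouring stretches of 1 element could differ in their ddb2-3 to WT ratio, with values on opposite sides of 1. In the TAT1_ATH element on chromosome 5, the CHH-hyper region chr5:26415201-26415300, 592 bp from AT5G66050, had 9.83 RPM in ddb2-3, 0 RPM in nrpd1a and 2.37 RPM in WT, a ratio of 4.15 (2.34 to 7.92). The CHH-hypo region chr5:26415401-26415500 of the same element had a ratio of 0.893 (0.787 to 1.01), on the levels given above. This interval holds 1, so a decrease in that region is not shown. All 24-mers of the first region and 80.5% of those of the second occur once in the genome, so other copies share little of their sequence. In the ATGP2 element on chromosome 2, within exons of the pseudogene AT2G01034, the CHG-hypo region chr2:44801-44900 had 3.95 RPM in ddb2-3, 0 RPM in nrpd1a and 1.35 RPM in WT. Its ratio was 2.92 (1.32 to 7.32) on 33 and 8 reads. The CHG-hyper region chr2:45501-45600 had 0.479 RPM in ddb2-3, 0 RPM in nrpd1a and 2.54 RPM in WT, a ratio of 0.189 (0.0456 to 0.593) on 4 and 15 reads. The hypo region was thus above WT in ddb2-3 and the hyper region below it.

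The lowest ddb2-3 to WT ratios among members of at least 10 RPM were moderate. The ATLANTYS3 region chr5:15243601-15243700, in an exon of the pseudogene AT5G38192, had 5.75 RPM in ddb2-3, 0 RPM in nrpd1a and 11.7 RPM in WT, a ratio of 0.493 (0.334 to 0.723). The ATLANTYS2 region chr1:14286501-14286600 had 8.27 RPM in ddb2-3, 1.45 RPM in nrpd1a and 12 RPM in WT, a ratio of 0.689 (0.487 to 0.973). The other 2 were ATGP1 LTR regions. The region chr1:13667101-13667200 had 10.7 RPM in ddb2-3, 5.09 RPM in nrpd1a and 14.9 RPM in WT, a ratio of 0.717 (0.528 to 0.973). The region chr5:12508601-12508922 had 38.8 RPM in ddb2-3, 2.18 RPM in nrpd1a and 49.7 RPM in WT, a ratio of 0.781 (0.665 to 0.918). All 4 belonged to the CHH-hypo class, which held 37 of the 345 members.

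The highest WT region of each family followed the pattern of its family in nrpd1a, with at most 1 read outside ATGP1. In ATGP1 it was the LTR region chr3:15477301-15477500, with 188 RPM in ddb2-3, 4.36 RPM in nrpd1a and 217 RPM in WT. In ATLANTYS3 it was chr5:10330901-10331152, with 110 RPM in ddb2-3, 0.727 RPM in nrpd1a and 85.6 RPM in WT. In ATGP2N it was chr4:5581801-5582100, in an exon of the pseudogene AT4G08750, with 58.1 RPM in ddb2-3, 0 RPM in nrpd1a and 41.1 RPM in WT. The ATLANTYS3 region came closest to the level of ATGP1. In ATGP2 the highest region, chr2:16401-16500, had 32.0 RPM in ddb2-3, 0 RPM in nrpd1a and 23.7 RPM in WT. In ATLANTYS2 it was chr3:22237801-22237900, on the arm, with 13.2 RPM in ddb2-3, 0 RPM in nrpd1a and 16.2 RPM in WT. The highest regions of ATGP3, ATGP8 and ATGP10 had 11.9, 9.71 and 9.71 RPM in ddb2-3, no read in nrpd1a, and 9.30, 7.27 and 10.8 RPM in WT.

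By methylation class over all members, the summed level of the CHG regions was above the median region in ddb2-3 and that of the CHH regions was not. The CHG-hyper members summed to 2094 RPM in ddb2-3, 11.6 RPM in nrpd1a and 1707 RPM in WT, a log2 ratio of 0.29 (0.26 to 0.33), and the CHG-hypo members had 0.28 (0.24 to 0.33). The intervals of the hyper and hypo regions of CHG thus overlapped. Relative to the median region both stayed above 0, at 0.096 and 0.083. The CHH-hyper members summed to 2950 RPM in ddb2-3, 67.6 RPM in nrpd1a and 2763 RPM in WT, a log2 ratio of 0.094 (0.066 to 0.12) that turned to -0.10 relative to the median region. The CHH-hypo members summed to 1135 RPM in ddb2-3, 44.3 RPM in nrpd1a and 1003 RPM in WT, a log2 ratio of 0.18 (0.13 to 0.23) that turned to -0.020 (-0.067 to 0.027). Region by region, 21 of 37 CHH-hypo members and 34 of 70 CHH-hyper members were above WT relative to the median region, against 106 of 161 CHG-hyper and 48 of 76 CHG-hypo members. Among members with at least 90% unique 24-mers the order of the contexts was not the same. The ddb2-3 log2 ratio of sums was then 0.93 (0.57 to 1.30, 5 regions) for CHH-hyper and 0.38 (-0.16 to 0.95, 2 regions) for CHH-hypo. It was 0.32 (0.16 to 0.47, 28 regions) for CHG-hyper and 0.31 (0.083 to 0.54, 18 regions) for CHG-hypo. In nrpd1a the CHG-hyper members kept 0.681% of WT, the CHG-hypo 1.01%, the CHH-hyper 2.45% and the CHH-hypo 4.42%.

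ATGP1 and its LTR were unevenly spread over the contexts. Of the 107 CHH members, 37 were ATGP1 LTR regions, against 7 of the 237 CHG members. In the CHH-hyper class the log2 ratio of sums was 0.079 (0.050 to 0.11) for ATGP1 and 0.37 (0.24 to 0.50) for the other families, and relative to the median region the ATGP1 value turned to -0.12 while the other stayed at 0.17. In the CHH-hypo class it was 0.21 (0.16 to 0.26) for ATGP1 and -0.0095 (-0.13 to 0.12) for 9 regions of other families. The single CG-hyper region, in ATGP1, had 7.31 RPM in ddb2-3, 0 RPM in nrpd1a and 8.62 RPM in WT. The single CG-hypo region, in ATLANTYS2, had 3.71 RPM in ddb2-3, 0 RPM in nrpd1a and 6.43 RPM in WT.

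Most members lay near the centromeres. Within 3 Mb of a centromere midpoint there were 304 regions (88.1%), and 41 lay on the arms. The pericentromeric share was 59.6% over all distinct regions, 98.9% for ATHILA and 46.9% for Copia. The pericentromeric members summed to 6597 RPM in ddb2-3, 126 RPM in nrpd1a and 5743 RPM in WT, a log2 ratio of 0.20 (0.18 to 0.22) that was 0.0010 relative to the median region. The members on the arms summed to 801 RPM in ddb2-3, 7.27 RPM in nrpd1a and 739 RPM in WT, a log2 ratio of 0.12 (0.062 to 0.17) that turned to -0.081 relative to the median region. Outside ATGP1 the pericentromeric ratio was 0.34 (0.29 to 0.38) and the arm ratio 0.082 (-0.00095 to 0.17), so these 2 intervals did not overlap, and relative to the median region the arm value turned to -0.12. In ATGP1 the 2 positions did not differ beyond their intervals, with 0.17 near the centromeres and 0.15 on the arms. Relative to the median region these sums turned to -0.030 (-0.051 to -0.0080) and -0.054 (-0.13 to 0.021), while 80 of 137 regions near the centromeres and 5 of 7 on the arms stayed above WT.

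The members differed from the series as a whole in sequence and surroundings, though ATHILA was closer to them in base composition. Their median GC content was 48.0%, against 36.4% for all distinct regions, 43.0% for ATHILA and 39.0% for Copia. They had a median of 9.0 CHG sites per 100 bp, against 5.0 for all distinct regions, 8.0 for ATHILA and 6.0 for Copia. A RefSeq pseudogene overlapped 231 members, a protein-coding gene 6, and 109 overlapped no annotated gene. Only 46 members (13.3%) lay within 2 kb of a protein-coding gene, against 46.3% of all distinct regions. A GA repeat of at least 10 nt was found in 1 member (0.290%), against 1.03% of all distinct regions.

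Across the 345 members the ddb2-3 to WT difference on log2(RPM + 1) followed GC content weakly, with Pearson's r of 0.26 and Spearman's rho of 0.29. Across the 144 ATGP1 regions alone the values were 0.51 and 0.47, and across the other 201 members 0.11 and 0.16. These are descriptions across regions that share libraries and sequence, and in ATGP1 the GC content also separates the LTR from the internal part. The WT level, on the other hand, followed how repeated a region was, with a Spearman's rho of 0.63 between the WT level and the median genome copy number of its 24-mers. This relation depends on how reads with several hits were counted as well, and the part played by that counting was not tested.

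Single elements often held regions on both sides of WT in ddb2-3. Of the 76 elements with at least 2 member regions, 30 had all regions above WT, 40 had regions on both sides, and 6 had none above. Of the 37 elements with at least 3 member regions, 15 had all regions above WT, 22 had regions on both sides, and 0 had none above. These counts ignore counting error. The interval of the ratio lay wholly above 1 in 91 of all members and wholly below 1 in 16. Over all members 73.3% were above WT, and how many mixed elements this share alone would give was not tested. The element with the most regions, an ATGP1 copy on chromosome 4 (6529501 to 6535600), had 11 of them. It summed to 555 RPM in ddb2-3, 3.63 RPM in nrpd1a and 501 RPM in WT, and 10 of its regions were above WT.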

How the data were processed

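Small RNAs of 3 seedling libraries were analysed from 6 deposited tables per library. The values are RPM, that is, reads scaled to library size and summed over each region by the authors, per the file headers. The submitters' processing notes name Bowtie, bedtools, CASAVA 1.8.2 and genome build TAIR10. Which reads make up the denominator is not given in the sources used here. Regions were pooled over the tables and collapsed by coordinates. Of all values, 100% were whole reads within 0.1 read. Ratios of sums used no pseudocount. Ratios of single regions used log2(RPM + 1), where 1 library or more reached 1 RPM. The members and the lists were chosen with earlier results of these data known. Named regions were picked by rank. Among members of at least 10 RPM in ddb2-3 or WT they were the 4 highest and 4 lowest by ddb2-3 to WT ratio, and the 4 lowest by nrpd1a to WT ratio. The 4 members of highest nrpd1a level and the highest WT region of each family of at least 5 regions were added. LTRs were found by self-alignment with BLAST 2.17.0, and regions were placed at 70% identity or more over at least 50% of their length. Centromere midpoints were rounded values that no annotation used here gives. Of 345 gene listings in the tables, 334 overlapped the same gene in TAIR10.1. The size rule and the intervals were run on simulated data with independent reads, as the intervals assume. The simulation held no reads shared between repeat copies and no variation between libraries, so it does not check for these.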

Additional observations from a re-analysis of the deposited data

How the results depend on the processing

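No paired analysis was possible because each genotype had 1 library. Of 176 alternative values, 10 had the opposite sign to the reported value. Scaling to the median ratio of all regions turned the ddb2-3 log2 ratio of sums to -0.0081 for the members, -0.032 for ATGP1, -0.099 for ATGP3, -0.17 for TAT1_ATH, -0.10 for CHH-hyper, -0.020 for CHH-hypo and -0.081 for the arms. The same scaling gave a median of 0.082, 0.096 for CHG-hyper, 0.083 for CHG-hypo, 0.0010 near the centromeres and 0.080 for the ATGP1 internal part, and it turned the ATGP1 LTR to -0.17, with 7 members at least 2-fold higher and 3 lower. Over the 53 members with at least 90% unique 24-mers the log2 ratio of sums was 0.39 for the members, 0.93 for CHH-hyper, 0.38 for CHH-hypo, 0.42 near the centromeres and 0.23 on the arms, and ATLANTYS2 turned to 0.21, with 4 members higher, 0 lower and 42 lower in nrpd1a. In those members nrpd1a kept 0.942% of WT in all, 1.73% in CHG-hypo, 1.14% near the centromeres and 0% in CHH-hyper, in CHH-hypo and on the arms. With at least 10 RPM in a library, 4 members were higher, 0 lower and 149 lower in nrpd1a. With 1.5-fold in place of 2-fold, 54 were higher and 14 lower. With the binomial test on reads, 69 were higher and 8 lower, and with a pseudocount of 0.5 RPM 3 were lower. With the pericentromere set within 5 Mb the arm ratio turned to -0.043 and nrpd1a kept 0% there, and within 2 Mb it kept 1.88%. Chosen after seeing the data, leaving out ATGP1 gave a ddb2-3 log2 ratio of 0.28 and 0.815% of WT in nrpd1a, and leaving out the ATGP1 LTR gave 0.464%. The causes of these shifts were not tested, except that several of these settings leave fewer regions. At this depth 1 library per genotype limits every comparison, and the nrpd1a library had the fewest reads.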
